A study of Mus musculus with 6 samples.

Results

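The genes described here are 10 that mark and hold together the simple epithelium of mouse uterus: the keratins Krt7, Krt8, Krt18 and Krt19, the desmosome proteins Dsp and Pkp2, the surface proteins Epcam, Cdh1 and Tspan8, and the transcription factor Klf5. This list of genes was chosen with earlier results of these data known. Within it, probe sets were taken by name, whatever their values. A probe set was a member if its platform annotation gave one of these symbols as its only gene. This gave 15 probe sets of the 10833 with a single symbol, for 10 of 8251 genes. Of the 15, 11 were analysed, at least 1 for each gene, and all 11 were above the floor of 6.60 on all 6 arrays; the floor is the 40th percentile of all log2 values, below which values were set equal. The other 4 were not analysed. The second probe sets of Krt18 and Dsp and the third of Pkp2 lay at the table's lower limit of 5.39 on every array. The second of Pkp2 lay above that limit but below the floor, at 6.28 at 0 h and 5.48 to 6.06 afterwards.

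Whole uterine horns came from female 129/SvImJ wildtype mice, an inbred strain, aged 10 to 16 weeks and ovariectomized 14 days earlier, so that all groups lacked their own ovarian hormones. The 0 h group had no injection, and the other 5 groups received 0.2 mg progesterone in 0.1 mL sesame oil under the skin and were collected 6, 12, 15, 18 or 24 h later. Each group was 1 RNA pool, made from the 8 horns of 4 mice, on 1 Affymetrix array, so each of the 6 values of a gene stands alone, and precision is limited by this number of arrays. No group injected with oil alone was analysed here, so hormone, oil and injection cannot be told apart, and a single array serves as 0 h throughout.

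Keratins of simple epithelium assemble in pairs, a type II chain (Krt7 or Krt8) with a type I chain (Krt18 or Krt19), into filaments that span the cell. Desmoplakin (Dsp) and plakophilin 2 (Pkp2) fasten these filaments to desmosomes, while E-cadherin (Cdh1) joins neighbouring cells at adherens junctions through catenins. In the uterus these genes are read as signs of luminal and glandular epithelium, the cells that face an implanting embryo, and several are also made by mesothelium, the outer lining of the organ.

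The tissue label could be checked against other genes. Hoxa10 and Hoxa11, homeobox genes of uterine stroma, stood at 9.47 and 9.93 at 0 h, the receptor Pgr at 8.46, and the markers of smooth muscle, stroma and epithelium that were analysed numbered 9, 12 and 24. The 0 h array correlated with the others at r of 0.971 to 0.977 across all probe sets, against 0.979 to 0.994 between progesterone arrays. The spike-in probe sets of BioB, BioC and BioDn with the suffix _at differed from 0 h by -0.38 to 0.07 on the progesterone arrays, most of them below 0. Those of CreX with that suffix, the brightest, differed by -0.06 to 0.15. The suffix _st marks other control probe sets. Those of BioB, BioDn and CreX above the floor on all arrays differed by -0.35 to 0.15. The 3' minus 5' log2 difference of beta-actin lay between 0.19 and 0.33, that of Gapdh between -0.15 and -0.05 and that of pyruvate carboxylase between 1.18 and 1.59, with the 0 h array inside each range. These 3 pairs were above the floor on all arrays. For the transferrin receptor the difference was 0.67 at 0 h and 1.18 to 2.15 afterwards, but its 5' probe set lay at the lower limit on all 6 arrays, so this follows the dim 3' probe set alone. The part of these control values in the results was not tested.

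All 10 genes were lower after progesterone, but by unequal amounts. The median log2 difference of the 10 from 0 h was -0.63 on the 6 h array, -0.70 on those of 12 and 15 h, -0.83 on that of 18 h and -0.85 on that of 24 h, or 64.7% of the 0 h level at 6 h and 55.4% at 24 h. Over all 5898 to 5909 analysed genes the median lay between -0.06 and 0.03. Each of the 11 probe sets was below its 0 h value on all 5 progesterone arrays, as were 27.2% of all probe sets, so groups did not overlap for any of them. With limma, which compared the 5 progesterone arrays as a group with the 0 h array and adjusted over 7724 probe sets, 6 of the 10 genes fell and 0 rose at an adjusted p under 0.05; of all probe sets, 1.8% fell and 0.893% rose (2.69% in either direction). At an unadjusted p under 0.05 the count was 9 of 10, against 19% of all probe sets. Because the 10 genes were chosen with earlier results of these data known, these counts beside all probe sets describe and do not test the list. The 6 were Krt18, Dsp, Pkp2, Epcam, Tspan8 and Klf5. In a separate fit of hours as a number, 1 of the 10 fell, Krt7, against 0.116% of all probe sets, and 0 rose, against 0.194%. In bulk RNA, fewer epithelial cells and less RNA per cell cannot be told apart. The spread in the first test is that between times, with the lone 0 h array assumed to vary like the rest. Of the 6 genes that fell, Epcam passed with any 1 progesterone array left out, though only narrowly without 12, 15 or 18 h. The other 5 passed without 6 h but not without 12, 15, 18 or 24 h, where the count was 1. Over all probe sets, 139 fell with all arrays, 334 without 6 h, and 29, 30, 35 and 59 without 12, 15, 18 or 24 h.

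**Figure D1:**
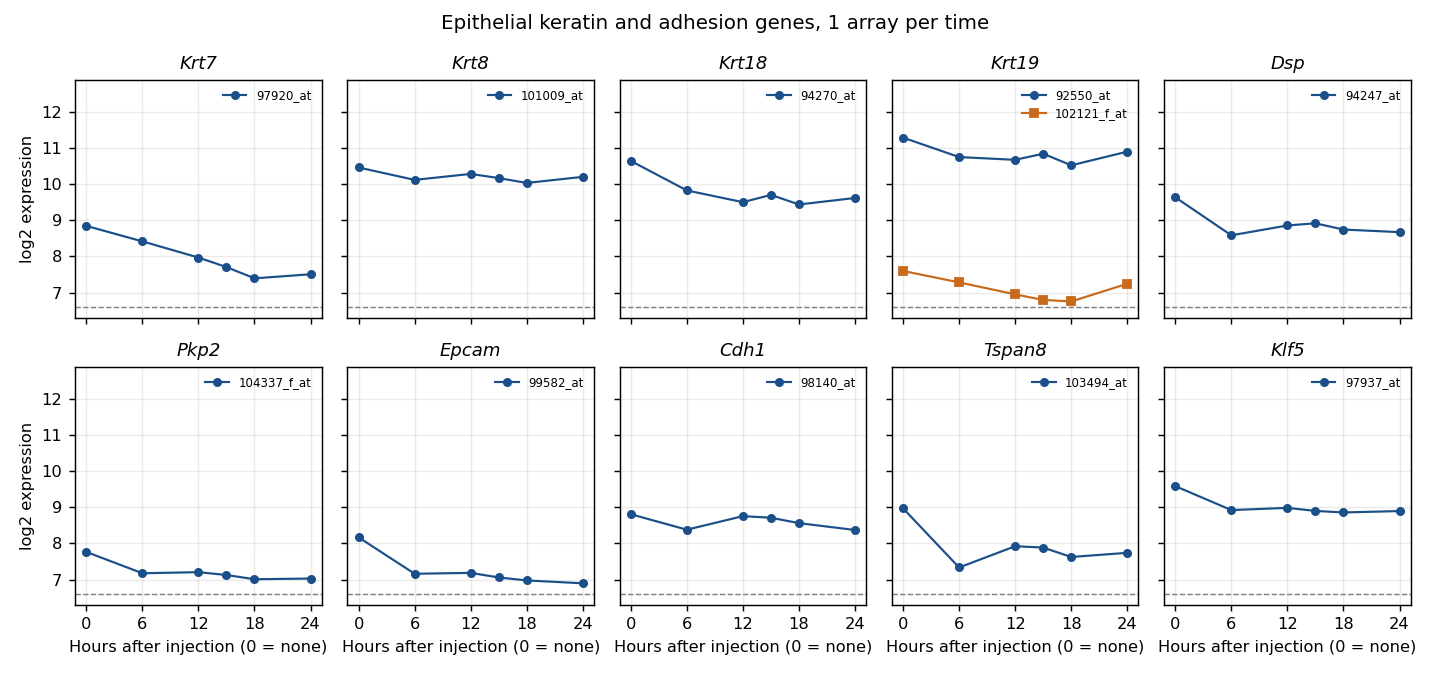
Log2 expression of each gene (y axis) against hours after progesterone (x axis, 0 being no injection), 1 array per point; Krt19 has 2 probe sets and the dashed line is the floor of 6.60. Krt7 goes down in steps to 18 h, from 8.85 to 7.39, while Epcam, Tspan8, Dsp and Klf5 are already lower at 6 h.

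The start regions of 4 members are shown because of their values. Of the 3 keratin genes of chromosome 15, Krt7 and Krt18 had mean differences of -1.05 and -1.03, and Krt8 of -0.30. The fourth, Epcam, passed with any progesterone array left out. RefSeq's table for GRCm38.p6 gave 300 bases, 250 before and 50 after the start, for 6 members: Krt7, Krt8, Krt18, Dsp, Epcam and Tspan8. Krt19, Pkp2, Cdh1 and Klf5 were not matched. Sequences run 5′ to 3′ on the gene's strand. Capitals mark 2 motifs, on either strand: CACCTG, the E2-box read by repressors of the Snail and Zeb families, and GGGCGG, the GC box read by Sp and Kruppel-like factors. The capitals did not overlap each other. Krt7 lies at chr15:101412153-101412452 (plus strand), Krt8 at chr15:102004293-102004592 (minus strand), Krt18 at chr15:102027966-102028265 (plus strand) and Epcam at chr17:87635729-87636028 (plus strand).
Krt7: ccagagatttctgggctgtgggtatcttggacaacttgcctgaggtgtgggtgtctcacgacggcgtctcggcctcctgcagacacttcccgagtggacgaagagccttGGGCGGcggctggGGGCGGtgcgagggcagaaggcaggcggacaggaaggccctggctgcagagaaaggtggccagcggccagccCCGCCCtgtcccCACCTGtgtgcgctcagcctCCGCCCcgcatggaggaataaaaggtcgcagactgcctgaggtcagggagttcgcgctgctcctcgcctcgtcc
Krt8: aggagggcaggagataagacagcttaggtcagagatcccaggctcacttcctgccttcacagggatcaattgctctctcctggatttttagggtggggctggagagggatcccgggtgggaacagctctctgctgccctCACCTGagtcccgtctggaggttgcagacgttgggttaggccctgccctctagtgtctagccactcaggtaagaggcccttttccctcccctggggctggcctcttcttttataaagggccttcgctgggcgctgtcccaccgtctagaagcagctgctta
Krt18: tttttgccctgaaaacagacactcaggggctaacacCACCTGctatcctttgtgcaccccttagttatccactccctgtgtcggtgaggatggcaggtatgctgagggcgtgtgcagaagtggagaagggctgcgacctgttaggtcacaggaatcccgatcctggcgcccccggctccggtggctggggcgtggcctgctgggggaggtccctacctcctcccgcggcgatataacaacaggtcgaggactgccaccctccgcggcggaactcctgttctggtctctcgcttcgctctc
Epcam: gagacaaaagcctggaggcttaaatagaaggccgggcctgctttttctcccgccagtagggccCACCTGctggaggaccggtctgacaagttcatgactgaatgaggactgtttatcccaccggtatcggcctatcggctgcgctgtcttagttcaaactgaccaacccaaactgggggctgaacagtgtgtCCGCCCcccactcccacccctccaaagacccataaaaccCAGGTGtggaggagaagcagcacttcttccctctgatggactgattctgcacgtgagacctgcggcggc
The E2-box letters occurred in 5 of the 6 member regions, against 20.2% of 32851 regions of the same length and 22.8% of those within the members' range of GC content. Epcam held 2 of them, at -187 and -19 from the start, and Krt7, Krt8 and Krt18 held 1 each, at -44, -111 and -214. Tspan8, the gene with the lowest mean difference, held neither motif. GC boxes occurred in 3 of the 6 regions (Krt7, Dsp and Epcam), against 35.7% of all and 55.9% of those in that GC range, with 4 each in Krt7 and Dsp. Of 5 other motifs searched on both strands, CACCC was in 5 of the 6 regions (57.5% of all), TGTTCT, the core of a steroid receptor element, in 1, that of Krt18 (19% of all), TATAAA in 1 (13.6%), and CCAAT and TGANTCA, the AP-1 site, in 0 (37.4% and 7.81%). A GC box can overlap a CACCC match, which was not marked. These matches describe letters only.

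Among the type I keratins, Krt18 had log2 values of 10.65 at 0 h and 9.83, 9.51, 9.71, 9.44 and 9.62 at 6, 12, 15, 18 and 24 h. The 5 progesterone arrays lay together and all were below 0 h, the nearest by 0.82. Krt18 fell by 1.03 ± 0.16 (SE; mean of 5 progesterone arrays minus 0 h, limma adjusted p = 0.024), and its level was 43.3% to 56.7% of that at 0 h. Krt19, the chain without the usual tail domain, read 11.30 at 0 h and 10.76, 10.68, 10.85, 10.53 and 10.91 afterwards on its brighter probe set. Here too every progesterone array was below 0 h, with a mean difference of -0.55 ± 0.15 that did not pass (adjusted p = 0.099; 0.046 with quantile normalization). Its dimmer probe set gave -0.59 ± 0.22 (adjusted p = 0.19). Both were lowest at 18 h, at -0.77 on the brighter and -0.85 on the dimmer. At 24 h they stood at -0.39 and -0.36. The 2 probe sets differed by up to 0.36 at the same time, but the dimmer one has the suffix for sequence shared within a gene family, so related transcripts may add to it.

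Of the type II keratins, Krt8, the usual partner of Krt18, read 10.47 at 0 h and 10.12, 10.29, 10.17, 10.04 and 10.21 at the 5 times. Its progesterone values were all lower, but the nearest differed from 0 h by only -0.18. The mean difference was -0.30 ± 0.13 and did not pass (adjusted p = 0.25), with levels at 74.3% to 88.3% of 0 h. The difference of Krt18 minus that of Krt8 was -0.47, -0.96, -0.65, -0.78 and -0.77 in order of time. This gap between the partners had 1 sign at all 5 times, but all 5 values share the single 0 h array, and it was not tested.

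Krt7, which is common in ducts and glands, read 8.85 at 0 h, then 8.42, 7.97, 7.71, 7.39 and 7.51, so that each array to 18 h was lower than the one before. The 6 h array differed from 0 h by -0.43, and steps of -0.45, -0.26 and -0.31 followed, with 0.11 back at 24 h. From 6 to 24 h Krt7 changed by -0.91, while the other 9 genes, on their brightest probe sets, changed by between -0.27 (Epcam) and 0.41 (Tspan8). Its mean difference of -1.05 ± 0.34 did not pass (adjusted p = 0.15; 0.04 without 6 h), since the spread between times is part of that test. As a trend Krt7 fell by 1.51 ± 0.22 per 24 h (adjusted p = 0.046), to 36.5% of the 0 h level at 18 h. The slope without the 0 h array was -1.32 per 24 h (adjusted p = 0.063). With arrays left out singly Krt7 passed the trend test only without 24 h (up to 0.19 without 0, 6, 12, 15 or 18 h). It did not pass with a 60th percentile floor, quantile normalization or no filter on low values (adjusted p = 0.062, 0.056 and 0.25).

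Desmosome members were lower from 6 h on. Dsp, the plakin that ties keratin filaments to the desmosome, read 9.64 at 0 h and 8.59, 8.86, 8.92, 8.75 and 8.67 at the 5 times. It was lowest on the first progesterone array and its highest still differed from 0 h by -0.72. Dsp fell by 0.88 ± 0.16 (adjusted p = 0.031). Pkp2, the armadillo protein of the desmosome plaque, read 7.77 at 0 h and 7.17, 7.20, 7.13, 7.01 and 7.03 afterwards, a narrow band of 0.20 well apart from 0 h. It fell by 0.66 ± 0.12 (adjusted p = 0.039; 0.064 with a 20th percentile floor and 0.059 with no filter on low values). The probe set of Pkp2 carries the same suffix as the dimmer one of Krt19.

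Of the surface proteins, Epcam, an adhesion molecule of epithelia that binds its like on the next cell, read 8.17 at 0 h and 7.16, 7.18, 7.06, 6.98 and 6.90 at the 5 times. Most of the difference was present at 6 h, -1.01, and the last array was lowest, at -1.27. Epcam fell by 1.12 ± 0.14 (adjusted p = 0.01), to 41.3% to 50.5% of the 0 h level; a 60th percentile floor lies above its progesterone values and left it untested. Tspan8, a tetraspanin of epithelial membranes, read 8.98 at 0 h and 7.33, 7.92, 7.89, 7.63 and 7.74. Its lowest array was 6 h, at 32.1% of the 0 h level, and it was the single member at least 2-fold lower at all 5 times, as were 0.443% of all probe sets. Tspan8 fell by 1.27 ± 0.22 (adjusted p = 0.029). Cdh1, the cadherin of adherens junctions, read 8.81 at 0 h and 8.38, 8.76, 8.71, 8.56 and 8.37. The 12 h array was within 0.05 of 0 h, and the mean difference of -0.25 ± 0.18 did not pass (adjusted p = 0.52). The difference of Epcam minus that of Cdh1 lay between -1.02 and -0.58 at the 5 times, which share the single 0 h array, and was not tested.

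Klf5, a zinc finger factor of dividing epithelium, read 9.59 at 0 h and 8.93, 8.99, 8.90, 8.86 and 8.90. It had the narrowest range of the 11 probe sets over the 5 times, 0.13. Klf5 fell by 0.68 ± 0.12 (adjusted p = 0.031), to between 60.3% and 65.8% of its 0 h level.

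**Figure D2:**
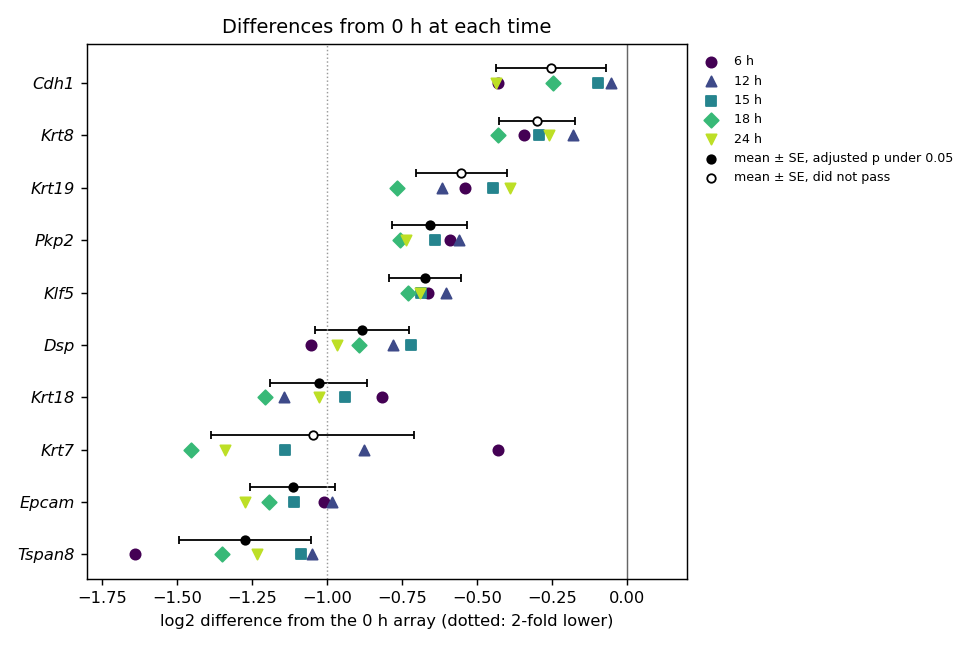
Log2 difference from the 0 h array (x axis) for each gene's brightest analysed probe set, 1 coloured point per time, with the mean of the 5 times and its SE in black above. Filled black circles passed the limma test at an adjusted p under 0.05; the genes run from -0.25 for Cdh1 to -1.27 for Tspan8, and the points of Krt7 are the most spread, from -1.45 to -0.43.

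Counted at each time, 3 of the 10 genes were at least 2-fold below 0 h at 6 h (Dsp, Epcam and Tspan8), against 1.1% of all probe sets. At 12 h there were 2, Krt18 and Tspan8, against 1.75%, and at 15 h 3, Krt7, Epcam and Tspan8, against 1.58%. At 18 and at 24 h there were the same 4, Krt7, Krt18, Epcam and Tspan8, against 1.8% and 1.39%. Of the 10, 0 were 2-fold higher at any time, while of all probe sets 1.41%, 1.83%, 2.05%, 1.14% and 1.06% were, in order of time. With 1 array per time these counts have no test, and with arrays centred on their medians the count at 6 h was 1. Between neighbouring progesterone times 0 of the 10 genes moved 2-fold. From 15 to 18 h all 10 were lower, by steps of -0.32 to -0.04, with a median of -0.16 against -0.09 over all genes. From 18 to 24 h 7 of the 10 were higher, with a median of 0.08 against 0.05 over all genes.

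Genes made only in epithelium would shift together on the log2 scale if nothing but the share of epithelium in the pool had changed, so the spread between the 10 genes was described. The SD of their differences from 0 h was between 0.36 and 0.40 at each time, with 1.05 to 1.30 between the highest and lowest gene. The SD of the same genes' steps between neighbouring progesterone arrays was smaller, 0.31 from 6 to 12 h and 0.098 to 0.16 after that. Over all genes the SD of differences from 0 h was 0.39 to 0.45. Cdh1, Krt8 and Krt19 lay above the median of the 10 at every time, by 0.20 to 0.65, 0.28 to 0.59 and 0.06 to 0.46. Epcam, Krt18, Tspan8 and Dsp lay below it at every time, Tspan8 at -1.01 from it at 6 h and between -0.52 and -0.35 later. Dsp lay at -0.43 from it at 6 h and only -0.11 to -0.02 later. Pkp2 and Klf5 stayed within 0.16 of it. Krt7 crossed it, from 0.20 at 6 h to -0.62 at 18 h. These differences between genes were not tested. The part of a changed share of epithelium in these results was not tested.

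**Figure D3:**
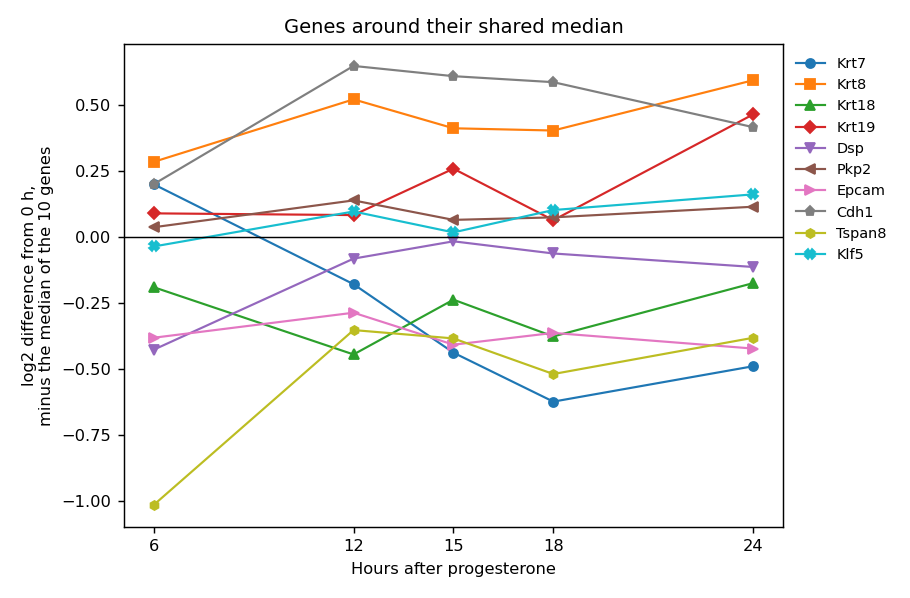
Log2 difference from 0 h of each gene minus the median of the 10 genes at that time (y axis) against hours after progesterone (x axis); the line at 0 is the shared median. Krt8 and Cdh1 run above it, Krt18, Epcam and Tspan8 below it, and Krt7 crosses from 0.20 to -0.62.

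Other genes of these structures were taken from lists drawn up by function. For every list, the count at an unadjusted p under 0.05 takes both directions together. Of all probe sets, 19% were under it. Of 13 other desmosome genes, 10 were on the array and 6 analysed; 0 passed with limma (3 at an unadjusted p under 0.05), and the median of their mean differences was -0.43 against -0.0046 over all genes. Dsg2, the desmoglein of simple epithelium, was lowest with a mean of -0.76 and -1.06 at 18 h (adjusted p = 0.12), followed by Perp, a desmosome membrane protein, at -0.71 (adjusted p = 0.11) and Pkp4 at -0.65 (adjusted p = 0.086). Periplakin (Ppl), which binds keratin filaments, was highest at 0.18 (adjusted p = 0.77). Of 15 other keratins, mostly of stratified epithelium, 8 were analysed and 0 passed (1 at an unadjusted p under 0.05), with a median of -0.04 and means from -0.34 for Krt4 (adjusted p = 0.25) to 0.30 for Krt10 (adjusted p = 0.54). Krt5, Krt14 and Krt15, keratins of basal cells, were among the 5 not above the floor on 2 arrays.

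Cdh1 works with catenins and nectins. Of 12 other adherens junction genes 7 were analysed and 0 passed on their brightest probe set, with a median of 0.06. The 1 gene at an unadjusted p under 0.05, Vcl, was higher. Ctnnb1 (beta-catenin) stood at -0.12 (adjusted p = 0.59), Ctnna1 at 0.06 (adjusted p = 0.91), and Nectin2, the lowest, at -0.14 (adjusted p = 0.74). Vinculin (Vcl), which links catenins to actin and is also made in smooth muscle, was highest at 0.40 (adjusted p = 0.19); its second probe set rose by 0.95 ± 0.17 (adjusted p = 0.031, up to 0.11 without 12, 15, 18 or 24 h). Of 9 analysed tetraspanins and EpCAM partners 0 passed (1 at an unadjusted p under 0.05), with a median of 0.03, Cd82 lowest at -0.56 (adjusted p = 0.14) and Tspan9 highest at 0.31 (adjusted p = 0.51). Cldn7, the claudin that binds EpCAM, stood at 0.15 (adjusted p = 0.79).

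Of the 12 analysed Kruppel-like and epithelial factors 1 fell and 0 rose (3 at an unadjusted p under 0.05), with a median of -0.37. Klf6 fell by 0.72 ± 0.15 (adjusted p = 0.045, up to 0.14 without 12, 15, 18 or 24 h), and Klf2, at the floor at 0 h, was highest at 0.22 (adjusted p = 0.41). Klf4 differed from 0 h by 0.55 at 6 h and by -1.01 at 18 h (adjusted p = 0.72). The epithelial factors Elf3 and Foxa2 stood at -0.67 and -0.57 (adjusted p = 0.095 and 0.13). Of 6 analysed genes of the mesenchymal switch 0 passed (also 0 at an unadjusted p under 0.05), with a median of 0.05: Snai1, a repressor of Cdh1, was highest at 0.43 (adjusted p = 0.34) and Twist1 lowest at -0.31 (adjusted p = 0.33).

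Markers of epithelium outside the 10 had an SD of mean differences of 0.58, against 0.35 for the 10, which was not tested. Of 33 listed, 28 were on the array and 24 analysed; Wnt7a, Ehf, Sprr2f and Spint2 were not above the floor on 2 arrays. Their median lay between -0.55 and -0.32 at the 5 times, 19 of 24 had a mean below 0 (50.5% of all genes), and their summed linear level was 21792 at 0 h and 16540 to 19778 afterwards. The summed level of the 10 keratin and adhesion genes was 9021 and 5114 to 5935. Of the 24 other epithelium markers, 15 had an unadjusted p under 0.05. Among these, Cldn3 and Ihh were higher and the rest lower. In limma, 4 of the 24 fell and 0 rose at an adjusted p under 0.05. They were Ltf, the secreted lactoferrin, with a difference of -1.58 ± 0.29 (adjusted p = 0.035), and Lamb3, Itgb4 and Lama3, the laminin chains and integrin of the hemidesmosome, at -1.45, -1.23 and -1.17 (adjusted p = 0.0096, 0.008 and 0.0047). Lamb3 and Lama3 were above the floor on 5 arrays, Lamb3 missed the threshold without 12 h (adjusted p = 0.052) and Ltf without 12, 15, 18 or 24 h (up to 0.12). The means of 5 were above 0: Ihh, a hedgehog ligand, was highest at 0.86 (adjusted p = 0.25), the claudins Cldn3, Cldn4 and Cldn7 stood at 0.43, 0.13 and 0.15 and the calcium-binding Calb1 at 0.12 (adjusted p = 0.13, 0.69, 0.79 and 0.93). Sox17 was at -0.0056 (adjusted p = 0.99).

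Other cell types were set beside these values. The 10 analysed immune markers had medians of -0.37 to -0.15 and the 10 of endothelium -0.20 to 0.02, with 0 and 1 (Cldn5, adjusted p 0.058 without 12 h) that fell. The highest and lowest means were -0.14 (Csf1r) and -0.50 (Tyrobp) for immune cells and 0.25 (Flt1) and -1.29 (Cldn5) for endothelium. Stroma markers had medians of -0.14 to 0.17 with 1 of 12 that fell (Fbln1, adjusted p up to 0.11 without 12, 15, 18 or 24 h), and smooth muscle markers -0.10 to 0.54 with 0 of 9; 0 rose in any of these lists. The call of Fbln1 came from its brightest probe set (-0.60), and its other 3 stood at -0.69, -0.27 and 0.16 (adjusted p = 0.053, 0.28 and 0.64). At an unadjusted p under 0.05 the counts were 2 of 10 for immune, 2 of 10 for endothelium, 5 of 12 for stroma and 3 of 9 for smooth muscle markers. The 3 of smooth muscle were all higher than at 0 h, and the 5 of stroma went both ways. The highest and lowest means were 0.88 (Hoxa11, adjusted p = 0.068) and -0.60 (Fbln1) for stroma and 0.54 (Des, adjusted p = 0.14) and -0.03 (Smtn) for smooth muscle. Summed linear levels went from 16843 at 0 h to 16214 to 22898 for the 8 smooth muscle markers with a value on every array and from 18044 to 15853 to 17727 for stroma. Of 3 mesothelium markers on the array, 2 were analysed: Upk3b was at -1.10 at 6 h and between -0.58 and 0.03 later, and Wt1 at -0.29 to 0.12, while Msln was not above the floor on 2 arrays. Of adipocyte markers 3 were analysed, with medians of -0.99 to -0.60, and 0 passed (2 at an unadjusted p under 0.05), from -1.68 for Adipoq (adjusted p = 0.15) to -0.10 for Lep. The part of these cell types in the results was not tested.

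**Figure D4:**
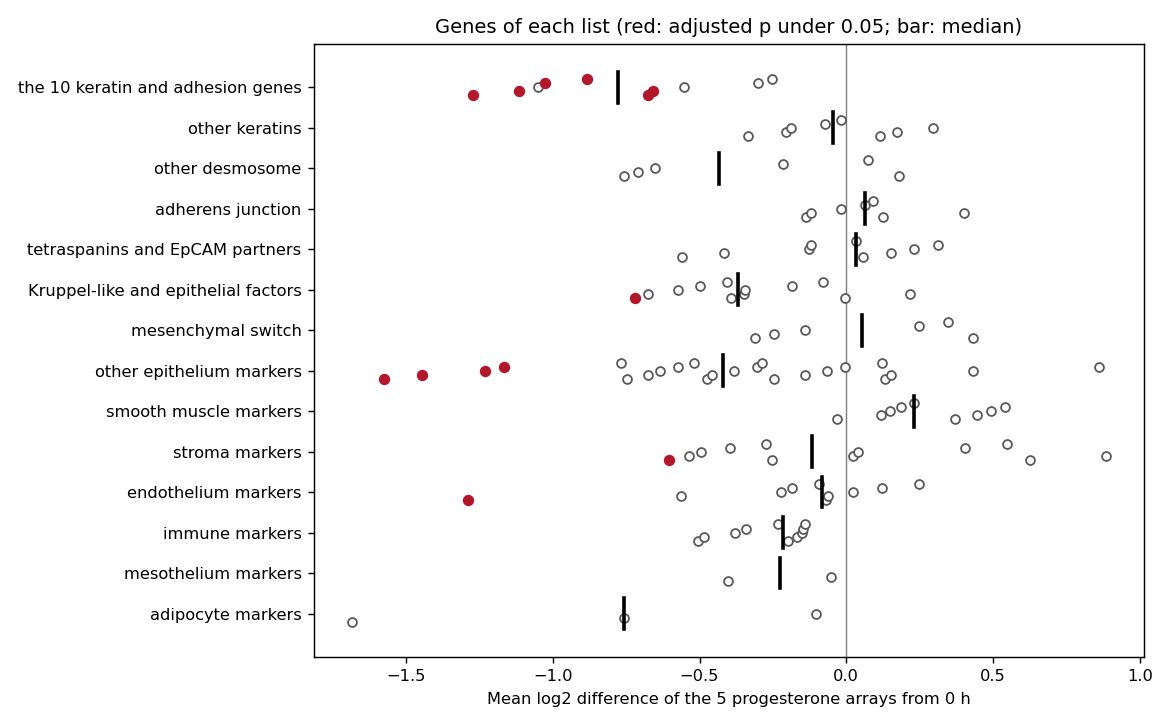
Mean log2 difference of the 5 progesterone arrays from 0 h (x axis) for each analysed gene of each list (rows), 1 probe set per gene; red points fell at a limma adjusted p under 0.05, open points did not pass, and the bar is the list's median. The 10 keratin and adhesion genes have a median of -0.78, the other epithelium markers of -0.42 and the smooth muscle markers of 0.23.

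Among 6910 other probe sets with 1 symbol, those whose 5 differences from 0 h lay nearest to Tspan8, the member with the largest mean difference, were Car2, a carbonic anhydrase, Itgb4, Mbp, Lama3 and Efhd1, at root mean square distances of 0.148, 0.152, 0.219, 0.225 and 0.239. Nearest to the median of the 10 genes were Rev3l, Ankrd28, Klf6, Adgrg1 and Ezh1, at distances of 0.058 to 0.090. All of these differences share the single 0 h array.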

How the data were processed

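The deposited table holds log2 expression per probe set for 6 arrays; for the authors' software, background correction and normalization, the sources used here give no statement. The log2 base was read from the values: 2 raised to them gives 4 decimals (within 0.05 of a unit of the last) in 99.8% of values under 2000, and in 6.42% with base e. The lowest value is 5.39 on every array; at this limit 21.1% to 22.5% of values lie, and it compresses differences of weak genes. Groups and times came from sample titles. The 2% trimmed means lay -4.10% to 3.42% from their median, within the 5% set for using values unscaled. Of 12422 probe sets that were not controls, 10833 had 1 symbol, 396 several and 1193 none; 121 values were missing. Values under 6.60 were set to that floor, and the 7731 probe sets above it on at least 2 arrays were analysed.

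limma 3.58.1 (R 4.3.3, lmFit, eBayes with an intensity trend) was fitted on all of them, with 4 residual degrees of freedom where no value was missing, once for progesterone against 0 h and once for hours, with Benjamini-Hochberg adjustment. Both fits were also run on simulated data in which the 0 h array varied like the others. That run cannot check whether the real 0 h array did so. Single times are differences with no test. For lists, each gene is represented by its probe set of highest mean. All 10 members are named; of each list, genes that passed plus the highest and lowest mean difference (a rule extended to the lists of other cell types after their values were seen), and the 5 nearest profiles; Perp, Pkp4, Ctnnb1, Ctnna1, Cldn3, Cldn4, Cldn7, Calb1, Klf4, Elf3, Foxa2, Sox17, Upk3b and Wt1 and the motifs were chosen after values were seen. The members and lists were chosen with earlier results of these data known. Alternatives were other floors, no floor, no filter, quantile normalization, median centring, eBayes without a trend, the mean of a gene's probe sets and each array left out.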

Additional observations from a re-analysis of the deposited data

How the results depend on the processing

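Of the 10 genes, 6 fell against 0 h, as did 139 of all 7724 probe sets. With no filter on low values 2 did (Epcam and Klf5), as did 202 of 12409. That setting keeps the floor and adds the probe sets above it on fewer than 2 arrays. With 1 progesterone array left out the count ranged from 1 to 7. It was 1 (Epcam) without 12, 15, 18 or 24 h, where 29, 30, 35 and 59 of all probe sets fell. Without 6 h it was 7, where 334 fell. The cause was not tested. Other settings gave 4 to 7, with 122 to 142 of all probe sets. In the trend over hours 1 gene fell (5 at an unadjusted p under 0.05, against 16.2% of all probe sets). The limma count was 0 with the floor at the 60th percentile, with quantile normalization or with no filter. There 16 of 5249, 10 of 7722 and 0 of 12422 probe sets passed in either direction. At an unadjusted p under 0.05 these settings gave 4, 5 and 4 genes, against 932, 1388 and 1219 probe sets. With 1 array left out 0 to 2 genes passed, against 0 to 147 of all probe sets. Unadjusted, 1 to 8 genes were under 0.05, against 929 to 1656 probe sets. With 1 array left out the slope per 24 h ranged from -0.42 to 0.00082 for Krt8, -0.80 to 0.12 for the brighter probe set of Krt19, -0.99 to 0.061 for Dsp and -1.34 to 0.37 for Tspan8, each positive only without 0 h; none of the 4 passed the trend test. By mean over times 4 genes were 2-fold lower, 2 with the floor at the 60th percentile, where 8 genes were analysed, and 2 to 4 with 1 array left out (2 without 18 h); at 6 h 3 were, and 1 with median centring. The median difference over times stayed between -0.80 and -0.75 and the SD between 0.34 and 0.37 under every setting run. The floor at the 20th percentile equals the table's lower limit, so it acts through the filter only. No paired analysis was possible because each group has 1 array.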
